A study of Drosophila melanogaster with 2 samples.

Results

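Dense clusters of binding peaks of the transcription factor Ribbon (rib) in Drosophila melanogaster embryos are described here. They were found by joining peak summits on the same chromosome whenever neighbours lay at most 5000 bp apart, and by keeping the chains of 4 or more summits that did not lie within 20 kb of the rib gene itself. These chains held 1094 of the 4606 peaks of the series, or 23.8%, in 209 chains. Another 1899 peaks (41.2%) lay in 829 chains of 2 or 3 summits, 1581 peaks (34.3%) had no neighbour within reach, and 32 peaks in 2 chains near rib were left out. The members were chosen by measured positions of peaks, so their spacing and number are descriptions and no test was made on them. The short spacing is fixed by the rule and is no check of the name dense clusters.

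The study is a chromatin immunoprecipitation and sequencing experiment (ChIP-seq) on whole embryos aged 0 to 24 h of transgenic flies that carry a rib-eGFP fusion. The precipitation used an antibody to GFP, although the labels also give rib as the antibody. The labels do not say whether the flies also kept untagged rib. There is 1 group of 2 biological replicates, no second condition, and no control library was used here. Chromatin was sheared by sonication to 200 to 800 bp. Because whole embryos of all these ages were pooled, binding in a few cells and weak binding in many cells cannot be told apart. Replicate 1 had 3082 thresholded peaks and replicate 2 had 2181, both called on the dm6 genome. The lists give no read counts, so the depth is unknown.

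Ribbon is a nuclear protein with a BTB domain, through which such proteins pair with one another, and a DNA-binding domain of the Pipsqueak type. It is known for its part in shaping the trachea, the salivary glands and other epithelial tubes of the embryo. Clusters of transcription factor peaks are common in introns and in the surroundings of developmental genes of the fly, where enhancers lie close together. GAGAG is the core of the sites of GAGA factor, encoded by Trithorax-like (Trl), and of Pipsqueak (psq), both also BTB proteins.

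The sequences at the strongest summits of chains were of more than 1 kind. The 7 windows below are the 101 bp around the strongest summit of a chain, read from the plus strand of the Release 6 assembly, with each GAGAG or CTCTC in capitals. Of the 15 windows of named chains that were read, 3 held such a match and 12 did not. Shown are those 3 and 4 strong AT-rich windows without a match, a choice made after their values were seen. The strongest summits of the rest of the 25 named chains were not read out as windows. Some of these hold a match and others do not, so 3 of 15 is no share of all named chains.

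CG14434: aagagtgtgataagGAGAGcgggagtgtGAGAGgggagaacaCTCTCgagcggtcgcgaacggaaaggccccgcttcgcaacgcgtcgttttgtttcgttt
CG5953: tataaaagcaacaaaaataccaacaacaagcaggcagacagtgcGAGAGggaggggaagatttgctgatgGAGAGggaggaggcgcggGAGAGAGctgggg
Eip75B: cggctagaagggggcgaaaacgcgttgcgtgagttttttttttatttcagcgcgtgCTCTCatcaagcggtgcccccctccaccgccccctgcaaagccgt
CHES-1-like: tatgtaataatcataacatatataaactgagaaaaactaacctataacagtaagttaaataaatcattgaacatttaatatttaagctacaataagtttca
Paics: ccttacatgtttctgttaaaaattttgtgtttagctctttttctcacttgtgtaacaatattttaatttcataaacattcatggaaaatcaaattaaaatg
Trl: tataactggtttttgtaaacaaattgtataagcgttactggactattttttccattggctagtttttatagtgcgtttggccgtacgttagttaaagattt
Tlk: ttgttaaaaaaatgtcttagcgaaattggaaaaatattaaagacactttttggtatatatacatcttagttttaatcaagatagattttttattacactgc

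The CG14434 window, at chrX:6861663-6861763 in an intron, had 56.4% G and C and 3 matches. The CG5953 window, at chr2L:16526127-16526227 in an intron, had 53.5% G and C and 4 overlapping or separate matches. The Eip75B window lies in intergenic sequence beyond the 3′ end of that gene, at chr3L:17949286-17949386, and had 58.4% G and C with 1 match. All 3 windows with a match had more than 50% G and C. The 12 windows without one ran from 19.8% to 50.5%, with 50.5% at Kr-h1 and 43.6% at chinmo, so the lack of a match did not go with a low G and C throughout. In the 4 that are shown, G and C made up 19.8% of the CHES-1-like window (chrX:7706944-7707044, intron) and 23.8% of the Paics window (chrX:12751338-12751438, intergenic). They made up 31.7% of the Trl window (chr3L:14759463-14759563, intron) and 22.8% of the Tlk window (chrX:3742150-3742250, intron).

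Most chains were short. Of the 209 chains, 99 had 4 summits, 54 had 5, 23 had 6 and 12 had 7, and the remaining chains had 8 to 16. The distance from the first to the last summit had a median of 6507 bp and ran from 1710 to 21169 bp. Chains were spread over the arms: 41 on 2L, 49 on 2R, 48 on 3L, 40 on 3R, 30 on X and 1 on chromosome 4. The share of an arm's peaks that lay in chains was 18.4% on 3R and between 23.8% and 26.3% on the other long arms. A chain was usually alone, with a median of 401 kb to the next chain on the arm, and in 18 of 203 neighbouring pairs the next chain began within 20 kb.

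Spacing within chains was skewed towards short distances. The 885 gaps between neighbouring summits had a median of 1280 bp and quartiles of 681 and 2514 bp. Gaps of up to 500 bp numbered 152 (17.2%), those over 500 to 1000 bp 210 (23.7%), and those over 1000 to 2000 bp 235 (26.6%). The distance limit cut through a smooth range: across all peaks, 92 gaps lay over 4500 to 5000 bp and 81 lay over 5000 to 5500 bp. The size limit also cut through a gradual range. The 99 chains of exactly 4 summits had a median signal of 94.6 and 42.7% of summits at a transcription start site (TSS), that is at most 500 bp from it, and the 241 runs of exactly 3 had 92.4 and 51.9%. Signal is how strong the peak caller rated a peak, in a unit of its own that is comparable within a list only.

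**Figure D1:**
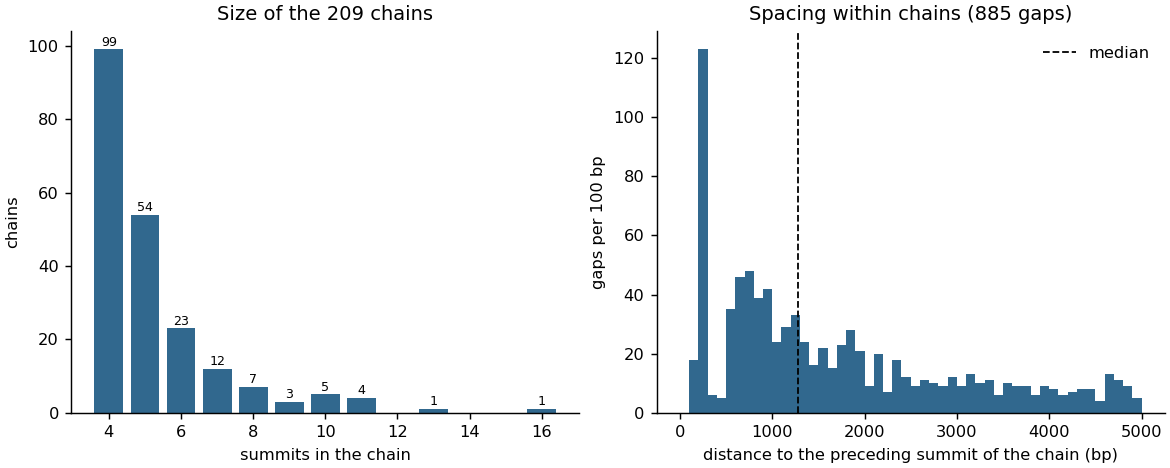
The left panel counts chains by their number of summits, and the right panel counts the 885 gaps between neighbouring summits in bins of 100 bp, with the median of 1280 bp as a dashed line. Chains of 4 summits were the most frequent class (99 of 209), and a sharp spike of gaps stands near 200 bp, apart from the broad range that follows.

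A block of very close pairs stood apart in this distribution. In 135 of the 885 gaps (15.3%), neighbouring summits lay at most 250 bp apart, with 199 bp as the smallest gap, and in 134 of these pairs the deposited regions overlapped. In all 135 pairs the weaker summit was the one with the higher coordinate. Its signal had a median of 0.146 times that of its stronger partner. Of the 87 chain peaks with a signal under 20, 84 were the weaker summits of such pairs. The pattern was not particular to chains, since 408 of the 410 pairs this close in the whole list had the weaker summit at the higher coordinate. Strand has no part in the order of coordinates, and the cause of this one-sidedness was not tested. When summits at most 250 bp apart were counted once, an alternative chosen after seeing the data, 162 chains with 822 peaks remained, and these overlapped 162 of the 209 chains (77.5%). The largest chain then had 13 summits, against 16 with every summit counted.

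Chain peaks lay in introns more often, and near a TSS less often, than the other peaks of the list. Within 500 bp of a TSS lay 385 of 1094 chain summits (35.2%, 95% exact interval 32.4 to 38.1), against 55.7% (53.4 to 57.9) of summits in chains of 2 or 3 and 60.0% (57.5 to 62.4) of summits without a neighbour. Introns more than 500 bp from any TSS held 45.4% (42.4 to 48.4) of chain summits, against 31.9% (29.8 to 34.1) and 25.3% (23.2 to 27.5). Intergenic sequence held 24.2% (21.7 to 26.9) of chain summits, against 26.6% (24.6 to 28.6) and 38.3% (35.9 to 40.7). Of the chain summits, 19.5% lay over 2000 to 5000 bp from the nearest TSS and 16.5% over 5000 to 20000 bp. Intervals cover the counting of peaks only, peaks of a chain are not independent, and the differences were not tested because position chose the classes.

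Most chains held both summits near a TSS and summits away from one, 160 of 209 in all. At least 2 summits lay near a TSS in 107 chains, exactly 1 in 66, and none in 36. The span from first to last summit touched 1 protein-coding gene in 100 chains, 2 genes in 57, 3 or more in 42, and none in 10. In 8 chains the span touched 5 or more genes. The most was 9, in a 7644 bp chain with pirk, an inhibitor of the immune deficiency pathway, at one end. Among the 70 chains that lay wholly inside the body of their host gene, 28.2% of the 369 summits fell in the first 25% of the gene from its 5′ end, 31.2% between 25% and 50%, 26.6% between 50% and 75%, and 14.1% beyond 75%.

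The median signal was 94.2 (95% interval 90.8 to 97.5) for chain peaks, against 90.4 (88.4 to 92.6) in chains of 2 or 3 and 95.1 (93.2 to 97.5) without a neighbour. The strongest peak of a chain had a median of 1.79 times the median signal of its chain, with quartiles of 1.37 and 2.33 and a highest value of 8.05. Its signal had a median of 173, against 85.3 for the remaining 885, a gap that picking the strongest makes. It held a median of 34.5% of the chain's summed signal. It lay within 500 bp of a TSS in 78 of 209 chains (37.3%), against 34.7% for the remaining peaks, so the strongest peak of a chain was near a TSS about as often as its other peaks. Of the 100 strongest peaks of the whole list, 21 lay in chains, and of the 500 strongest, 130 (26.0%).

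The replicates shared the strong members of chains more than the weak ones. A thresholded peak of each replicate overlapped 412 chain peaks (37.7%, 34.8 to 40.6), against 33.5% (31.4 to 35.7) of peaks in chains of 2 or 3 and 32.1% (29.8 to 34.5) of peaks without a neighbour. For the strongest peak of each chain this share was 79.4%, and for the others 27.8%. The series signal is made from both replicates, so a gap of this kind is built in. It was not particular to chains. Among the 100 strongest peaks of the list the share was 100% in each of the 3 classes. From rank 2001 down it was 11.4% for chain peaks, 9.93% in chains of 2 or 3 and 3.56% without a neighbour. Another 300 chain peaks (27.4%) overlapped a peak of replicate 1 only, 118 (10.8%) of replicate 2 only, and 264 (24.1%) of neither. At least 1 peak found in both replicates was present in 182 chains, whereas 27 had none and 1 had all its peaks in both. All but 6 chain peaks (99.5%) had an overlapping region in the ranked lists of both replicates. The share was 99.5% in chains of 2 or 3 and 99.2% without a neighbour. Those lists hold 96362 and 95627 regions, so an overlap with them says little about a peak. The overlap counts include sharing: 278 chain peaks overlapped a ranked region of replicate 1 that was also taken by another chain peak, and 268 did so in replicate 2. Chains built from 1 replicate's own thresholded list were fewer. Replicate 1 gave 103 chains, overlapping 81 of the 209 (38.8%), and replicate 2 gave 32, overlapping 29 (13.9%).

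**Figure D2:**
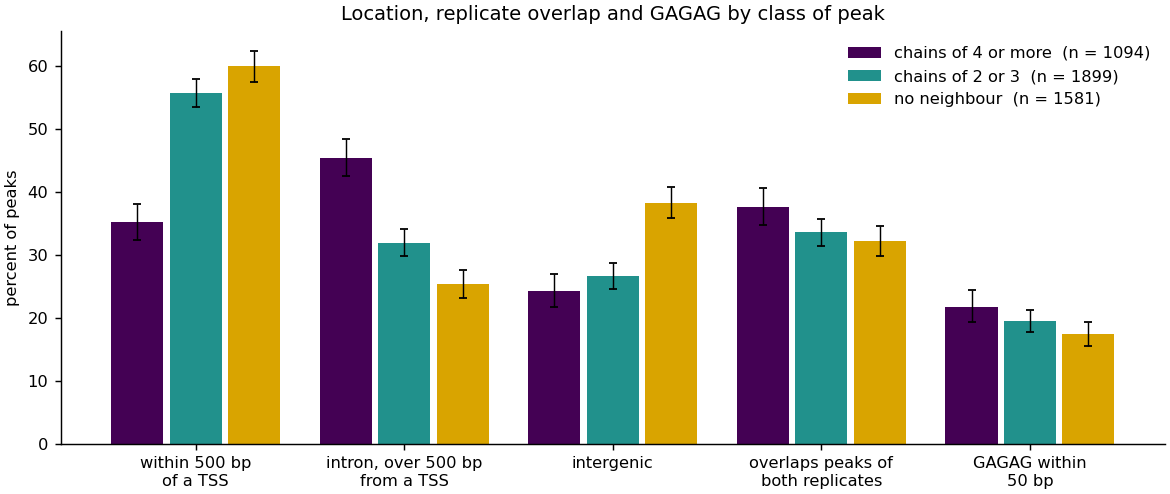
Bars give the percent of peaks in each class, in order chains of 4 or more summits, chains of 2 or 3, and peaks with no neighbour, and error bars are 95% exact binomial intervals. The share within 500 bp of a TSS was 35.2% in chains of 4 or more and 60.0% without a neighbour, and the share in introns away from a TSS was 45.4% and 25.3%.

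GAGAG was present near chain summits more often than in the genome at large. The motif, searched as GAGAG or CTCTC within 50 bp of the summit, was found at 238 of 1094 chain summits (21.8%, 19.3 to 24.3), and 11.5% of all 101 bp windows of the chromosome arms hold it. The shares were 19.4% (17.7 to 21.3) in chains of 2 or 3 and 17.3% (15.5 to 19.3) without a neighbour. Windows centred 250 bp beyond the chain summits held it in 16.3%. It was as frequent at distal chain summits, 21.9% of 709, as at those within 500 bp of a TSS, 21.6% of 385. The CACACA repeat or its complement stood at 16.5% of chain summits, against 15.1% and 13.0% in the other classes, and 8.0% of all windows hold it. TATCGATA, the palindromic core of the DRE promoter element, stood at 14 chain summits (1.28%), against 1.84% and 2.15%, and 0.277% of all windows hold it. Of those 14 chain summits 13 lay within 500 bp of a TSS. Further words were searched in the same way, so the motifs given here are a selection. The most frequent of the further words, GCCAT, stood at 16.2% of chain summits and in 16.1% of the windows centred 250 bp beyond them. Each of the rest was as frequent or less frequent at chain summits than in those windows. GAGAG was at no summit of 69 chains and at 3 or more summits of 22, and no chain had it at every summit. Motif matches are descriptions of sequence, not sites.

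The strongest chain peaks were AT-rich, and below the 500 strongest of the list the median composition was alike in both bins. Among the 100 strongest peaks of the list, the 21 chain peaks had a median of 31.7% G and C in the 101 bp at the summit, and 1 of the 21 held GAGAG. The 109 chain peaks at ranks 101 to 500 had 39.6% G and C, and 15.6% held GAGAG. The 365 chain peaks at ranks 501 to 2000 had 46.5% G and C, and 22.5% held GAGAG. The 599 chain peaks from rank 2001 down had 46.5% G and C, and 23.0% held GAGAG. The median over windows of the arms was 42.6%. The low G and C of the strongest peaks was not particular to chains, since the 39 peaks of chains of 2 or 3 among the 100 strongest had 29.7% and the 34 without a neighbour had 30.2%. The places differed: 5 of the 21 strongest chain peaks (23.8%) lay within 500 bp of a TSS, against 66.7% of those 39 and 85.3% of those 34. These differences were not tested.

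**Figure D3:**
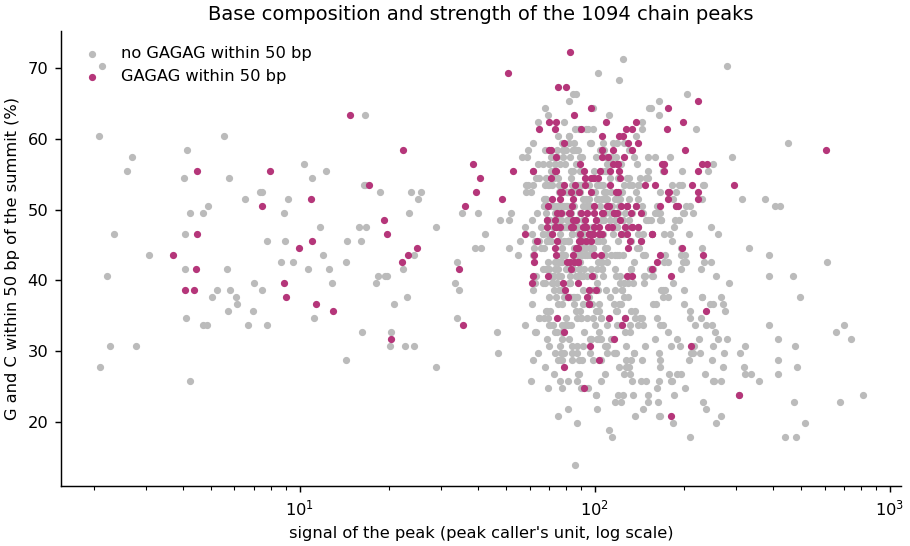
Each point is 1 of the 1094 chain peaks, with its signal on a log scale on the x axis and the percent of G and C within 50 bp of the summit on the y axis, coloured by whether GAGAG lies within 50 bp. The points with the highest signal lie mostly at low G and C, with a median of 31.7% for the 21 chain peaks among the 100 strongest, and most points below a signal of 20 are the weaker summits of close pairs.

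Each chain was named after its host gene, the protein-coding gene whose body with 1000 bp at either side holds the most summits of the chain, or otherwise the nearest one. This gave 198 distinct genes. Nuclear receptor gene Eip75B, which is induced by the moulting hormone ecdysone, was the host of 4 chains, and Dyro, Tlk, brat, chinmo, hry, sbb, shn and skd were each the host of 2. The 25 chains described by name are the 15 with the most summits, the 5 others with the highest summed signal and the 5 others with the closest spacing. Numbers in the next paragraphs are signals in the series list, followed by the signals of the overlapping regions in each replicate's own ranked list, which are on scales of their own. Counts of peaks in both replicates can include both summits of a close pair that overlap the same replicate regions. At HmgD, a summit with a signal of 2.70 has the replicate values of its partner at 198, and both are counted.

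The largest chain, with 16 summits over 18837 bp at chrX:6849668-6868505, covered CG14434, reached into the 5′ part of CG43736 and had CG4558 at its edge. Its strongest summit, in an intron, had a signal of 171, with 82.9 in replicate 1 and 71.8 in replicate 2. The chain was flat, with that summit holding 11.2% of the summed signal, and 6 of its 16 peaks overlapped peaks of both replicates. Of its 16 summits 13 lay in introns, and 4 lay within 500 bp of a TSS. Counting summits at most 250 bp apart once left 11 summits in CG14434 and 1000 bp around it, against 14 with every summit counted.

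Eip75B had the second largest chain, with 13 summits over 21169 bp in its introns (chr3L:17989451-18010620), 1 of them near a TSS. Signals there ran between 77.8 and 198, and 7 of the 13 peaks were in both replicates. The summit with the highest signal had 121 in replicate 1 and 71.5 in replicate 2. A further chain of 11 summits nearer the 3′ end (chr3L:17961738-17974071) had its strongest summit, with a signal of 223, in a 5′ UTR 111 bp from an internal TSS of the gene, where replicate 1 had 159 and replicate 2 had 76.3. A chain of 5 beyond the 3′ end (chr3L:17944827-17950543) had fewer but stronger peaks. Its top summit had a signal of 609, with 399 in replicate 1 and 208 in replicate 2, and the next 423, with 306 in replicate 1 and 99.5 in replicate 2. In that chain 3 of the 5 peaks were in both replicates.

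Chains of 11 summits also lay at chinmo, CHES-1-like and lola. Chinmo encodes a BTB zinc finger protein that sets the temporal identity of neurons. Its larger chain lay entirely in intergenic sequence upstream of the gene (chr2L:1624977-1643721), touched no protein-coding gene, and had its top summit 18397 bp upstream of the chinmo TSS. That summit had a signal of 389, with 232 in replicate 1 and 159 in replicate 2, and 7 of the 11 peaks were in both replicates. CHES-1-like, which encodes a forkhead protein, had all 11 summits inside the gene, with signals of 514, 267, 248 and 210 at the 4 strongest. The top summit had 259 in replicate 1 and 260 in replicate 2, and the weakest 2 summits, at 4.25 and 3.71, were the lesser partners of close pairs. The lola gene, whose BTB zinc finger proteins act in axon guidance, had 4 of its 11 summits near a TSS. The strongest there had a signal of 232, and 3 of the 11 peaks were in both replicates.

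The chain with the highest summed signal, 2333, ran from the intergenic sequence between CG4004 and Paics, the gene of an enzyme of purine synthesis, into Paics (chrX:12750206-12760564). Its 9 summits included signals of 811 and 483 in intergenic sequence. The first of these had 413 in replicate 1 and 392 in replicate 2, and the second had 214 in replicate 1 and 281 in replicate 2. Of the 9 peaks 6 were in both replicates, and the lone summit near a TSS, 53 bp from that of Paics, had a signal of 98.7. The strong members of this chain were thus the ones away from a TSS.

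Very strong single peaks stood in several other chains. At Trl, the gene of GAGA factor, a summit in an intron 1536 bp downstream of a Trl TSS had a signal of 740, with 379 in replicate 1 and 355 in replicate 2. It held 51.1% of the signal of a chain of 7, and 3 of those 7 peaks were in both replicates. Tlk, the gene of the Tousled-like kinase, had an intronic chain of 4 with a top signal of 678, with 354 in replicate 1 and 337 in replicate 2. CG9663 had a chain of 4 with a top signal of 699, with 347 in replicate 1 and 267 in replicate 2, and that 1 summit held 61.8% of the chain's signal. The next summit, with a signal of 273, lay 216 bp from it, and counting this close pair once leaves fewer than 4 summits. CG1888 had a chain of 9 with a summit of 657 at 260 bp from its TSS, with 398 in replicate 1 and 266 in replicate 2. In that chain 2 of the 9 peaks were in both replicates, and 7 of the 9 were in replicate 1 against 2 in replicate 2.

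The other large chains, and that of Kr-h1, differed in the strength of their top peak and in replicate overlap. The chain of Kr-h1, a zinc finger gene of the juvenile hormone response, had 6 summits and no close pair, with a top signal of 407 in an intron, where replicate 1 had 254 and replicate 2 had 151. The gene of the chromatin protein HmgD had 10 summits, which also reached into HmgZ, with a top signal of 497 and with 6 of 10 peaks in both replicates. Schnurri (shn), which encodes a zinc finger protein of Dpp signalling, had 10 summits with a top signal of 376 and 4 peaks in both replicates. PRAS40, the gene of an inhibitor of TOR complex 1, had 10 summits with a top signal of 177 and 4 peaks in both. The chain at CG5953 had 10 summits, 7 of them in the gene or within 1000 bp, with a top signal of 295 and 3 in both. The chain at LPCAT had 10 summits with a top signal of 389 and 5 in both. Of these, 5 lay in LPCAT or within 1000 bp, and the chain reached to the TSS of Hex-A. The chain of 8 around scyl, the gene of a TOR pathway inhibitor induced by stress, had its top signal of 197 at 18 bp from the scyl TSS and 4 peaks in both. The chain of 9 at milt, which encodes an adaptor for mitochondrial transport, had no peak in both replicates. Its top signal of 98.4 lay 9 bp from the TSS of another gene, Caper. Caper with 1000 bp at either side held 4 summits of the chain.

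The 5 chains with the closest spacing all held close pairs. They lay at l(2)k01209, CG8531, plh, how and Mob2, had 4 to 6 summits, and had median gaps of 201 to 297 bp. The how chain, in an intron of the gene of an RNA-binding protein of muscle, had signals between 11.0 and 144, and its 4 summits formed 2 such pairs. With summits at most 250 bp apart counted once, none of these 5 genes held 4 summits of a chain. With every summit counted plh did not either, since its chain reaches further out. The l(2)k01209 chain itself still had 4 summits with close summits counted once, because its last summit lies more than 1000 bp past the gene.

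**Figure D4:**
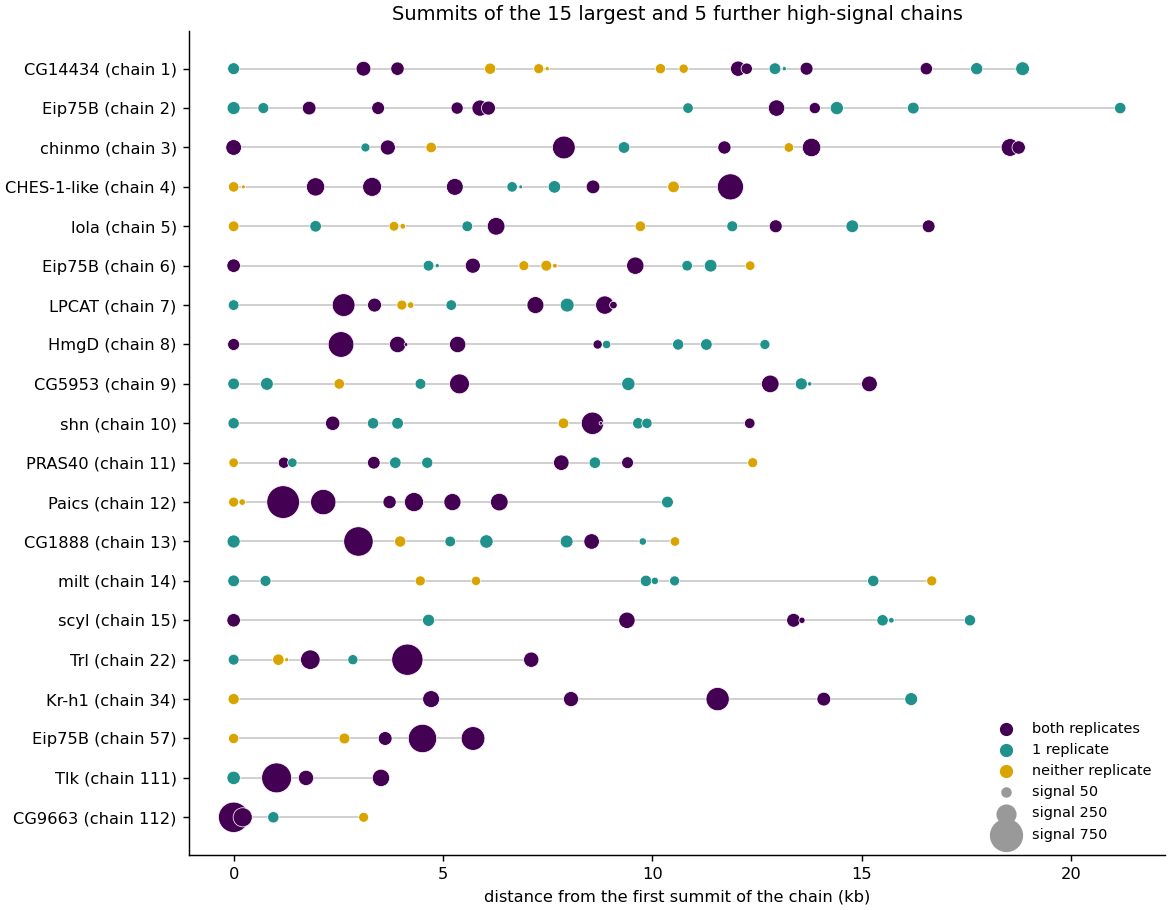
Each row is a chain, named by its host gene and numbered by size, with its summits placed by their distance in kb from the first summit. Point area gives the signal in the series list, and colour tells whether the peak overlaps thresholded peaks of both replicates, of 1 or of neither. The chain at Paics and the chains of Trl, Tlk, CG9663 and CG1888 have 1 or 2 large points in both replicates, whereas the CG14434 chain is long and flat.

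Genes that held 4 or more summits of a chain, in the body or within 1000 bp, numbered 150 of 13968 protein-coding genes (1.07%), and 27.0% of protein-coding genes had at least 1 summit of any kind. Long genes held chains more often. The share was 0.134% of genes up to 5 kb, 2.91% of those over 5 to 20 kb, 5.09% of those over 20 to 50 kb and 8.95% of those over 50 kb, and the median length was 16765 bp for the 150 genes, against 2164.5 bp for all protein-coding genes. Among genes over 20 kb, 64 of 1020 (6.27%) held a chain. The lists that follow are therefore set beside both shares, and the lists were chosen with earlier results of these data known. List counts under other settings have other totals beside them. Of the 13968 genes, 107 held a chain with close summits counted once and 111 in the conservative list. The totals were 80 with a largest gap of 2500 bp and 200 with 10000 bp. They were 166 with ranked regions past the score, 68 in replicate 1's own list and 23 in replicate 2's.

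Genes of BTB transcription factors held chains in 6 of 16 cases (37.5%), with 4 of the 12 genes over 20 kb among them. They were lola with 10 summits in 1 chain, Trl with 6, fru with 5, and chinmo, ken and psq with 4 each. The strongest summits in these genes had signals of 740 at Trl, 493 at fru, 232 at lola, 197 at psq, 156 at ken, which encodes a repressor in the JAK/STAT pathway, and 118 at chinmo. Any summit at all was found at 15 of the 16. The 16 include rib itself, which could not hold a chain because chains within 20 kb of it were left out. With summits at most 250 bp apart counted once, 4 of the 16 held a chain, and chinmo and ken no longer did. The count rested on both replicates together: replicate 1's own list gave 2 of the 16, at Trl and fru, and replicate 2's own list gave 0.

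Ecdysone response and nuclear receptor genes held chains in 5 of 28 cases (17.9%), all of them among the 17 that were over 20 kb. Besides Eip75B these were EcR, the gene of the ecdysone receptor, and Eip74EF, the gene of an ETS protein induced by ecdysone, with 5 summits each. The nuclear receptor genes Hr4 and ftz-f1 had 4 each. Strongest signals were 176 at EcR, 180 at Eip74EF, 162 at Hr4 and 326 at ftz-f1. All 5 still held a chain with close summits counted once. With a largest gap of 2500 bp Eip75B alone did. Replicate 1's own list gave 3 of the 28, at EcR, Eip74EF and Eip75B, and replicate 2's own list gave 2, at Eip75B and Hr4.

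Genes of the JNK pathway held chains in 3 of 14 cases (21.4%). They were kay, which encodes Fos, a part of AP-1, and aop, the ETS repressor Yan, with 6 summits each, and the kinase gene msn with 4. With close summits counted once there were 2, in replicate 1's own list 2, in the conservative list 1 and in replicate 2's own list 0. The 14 also include rib, which could not hold a chain under the rule. Polycomb and trithorax group genes held chains in 3 of 29 cases (10.3%), at Trl, at osa, which encodes a subunit of a SWI/SNF complex, and at skd, which encodes a Mediator subunit. The strongest summit at osa had a signal of 451. Replicate 1's own list gave 5 of the 29 and replicate 2's own list 0. EGF receptor pathway genes held 2 of 21 (9.52%), at aop and at Star (S), and actomyosin regulator genes 2 of 28 (7.14%), at Act5C and Moe. Single genes that held 4 or more summits of a chain were shn among 20 Dpp pathway genes and klar among 19 salivary gland genes. Among 23 segmentation genes it was ptc, the Hedgehog receptor gene. Host genes that hold fewer than 4 summits of their chain are not counted in the lists. Examples are hry, a segmentation gene and the host of 2 chains, and Su(z)2 of the Polycomb list. The ptc chain had no peak in both replicates. In the lists of single replicates, Act5C, Moe, S, ptc and klar held no chain, and shn and aop held one in that of replicate 1 but not of replicate 2.

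No chain of 4 or more summits was held by a gene of the other 8 lists. None was held by the 35 tracheal development genes, although 17 of them (48.6%) had a summit. Of these genes ush held a chain in replicate 1's own list and when ranked regions past the score were used. A largest gap of 10000 bp gave 2 of the 35, caps and pnt, among 200 protein-coding genes in all. Chains of 3 or more summits gave 5, at Mmp1, caps, grh, pnt and ush. The 29 guidance and adhesion receptor genes held none although 23 of them were over 20 kb and 20 had a summit. The 92 cytoplasmic ribosomal protein genes held none, and 67.4% of these short genes, with a median length of 1315 bp, had a summit. Hox complex genes (11), Notch pathway genes (21) and Wingless pathway genes (24) held none, and neither did the 179 chemosensory receptor genes, where 6.15% had a summit. The 140 genes of the cuticle protein list held none, and 4.29% of them had a summit. That list also holds genes of other kinds, such as Acp26Aa, Acp36DE, Acph-1 and Cpr, so its counts are not of cuticle genes alone. The zeros depend on the limit of 4 summits. With chains of 3 or more, 4 Notch, 3 Wingless, 2 guidance and adhesion receptor genes and RpS4 held one, among 394 protein-coding genes in all. The Hox, chemosensory and cuticle lists still had none. With few genes a list and no test, these counts describe the lists and no more.

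**Figure D5:**
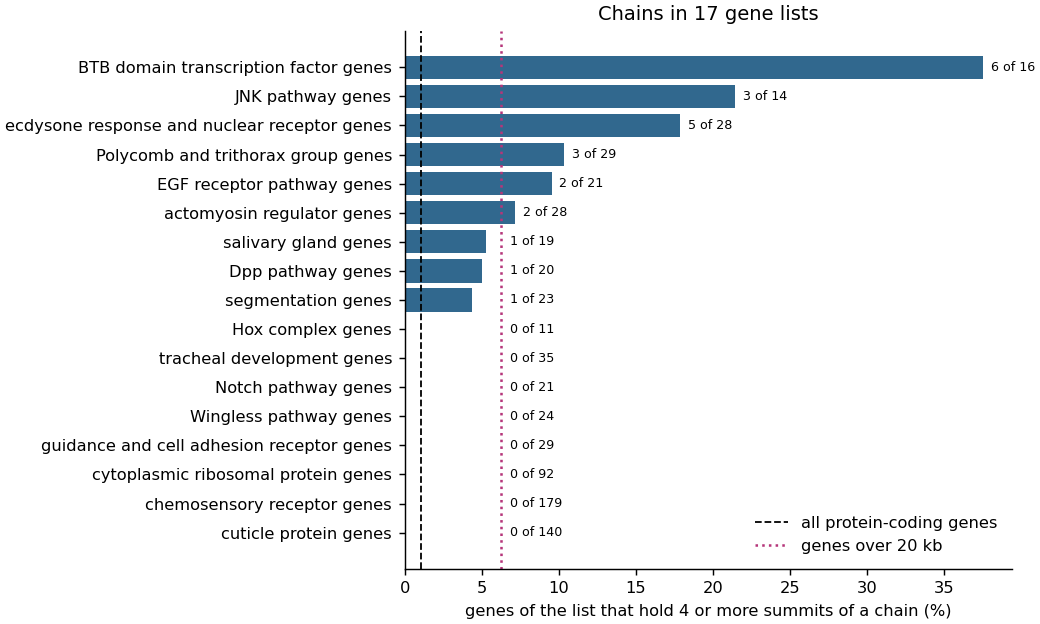
Bars give the percent of genes in each of 17 lists that hold 4 or more summits of 1 chain, with the counts beside them. The dashed line is the share over all protein-coding genes, 1.07%, and the dotted line the share over genes longer than 20 kb, 6.27%, and the bars of BTB, JNK and ecdysone genes reach 37.5%, 21.4% and 17.9%.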

How the data were processed

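Peak lists of 2 biological replicates of a rib-eGFP ChIP-seq in embryos were used. Per the deposited notes, the authors made replicate lists from 1 replicate and series lists from both, on dm6. Which aligner and peak caller were used is not given here. The authors' signal is a strength in an unstated unit of the peak caller. The authors' score rescales the irreproducible discovery rate (IDR), with 830 at an IDR of 0.01. Summits were chained in Python 3.11.15 (pandas 2.3.3, numpy 2.4.6, with intervals from scipy 1.17.1), and the chaining and motif search were tested on simulated data. Replicate overlap needed at least 1 bp, and the strongest overlapping region gave the replicate's signal. TSSs and genes are those of Ensembl release 115, 13968 protein-coding genes in all. The Release 6 FASTA of RefSeq gave the sequences, none of which holds a UTR base. Of 17 gene lists all but 1 asked gene matched a symbol. Named genes follow a rule: the 15 chains with the most summits, 5 by summed signal, 5 by spacing, and every list member holding a chain. The members and lists were chosen with earlier results of these data known. One further ranked list of the series was not used here. No test was run: with 1 group, intervals are exact binomial ones for shares and order-statistic ones for medians, at 95%, and cover the counting of peaks only.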

Additional observations from a re-analysis of the deposited data

Results flagged for a closer look

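The ranked list of the series holds 4778 regions with a score of 830 or more, and 172 of them are not in the thresholded list used here. Of these 172 regions 93 (54.1%) fell in chains of 4 or more summits when added, against 23.8% of the 4606 peaks of the thresholded list. They stood out as a signal outside the list the report rests on, with no control samples to set beside them. They entered 21 chains, and 7 chains were made of them alone. Examples, chosen after their values were seen, are a chain of 9 summits at Rh5 with a top signal of 1054, a chain of 12 at tara with 10 such regions, and a chain of 6 at spen with a top signal of 372. Each of the 209 chains still overlapped a chain with these regions added. Why these regions are absent from the list was not tested.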

How the results depend on the processing

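The numbers of chains and genes follow from the limits chosen, and all values below are for chain peaks. A largest gap of 2500 bp gave 117 chains with 12.6% of peaks, a median spacing of 938 bp, 31.9% of summits within 500 bp of a TSS and 80 genes, and one of 10000 bp gave 331 chains, 43.1%, 1879 bp and 44.5% near a TSS. With 3 or more summits there were 450 chains, 39.4% of peaks, 41.8% near a TSS and 394 genes, and with 6 or more 56 chains, 9.29%, 1154 bp, 25% and 30 genes. The conservative list put 20.1% of peaks in chains, 40.9% of them in both replicates, and the ranked regions past the score 25.4% and 34.5%. The stronger 50% of peaks gave 41 chains, 8.38% of peaks, 1778 bp, 26.4% near a TSS, 63.2% in both replicates, a median signal of 138, 25.4% with GAGAG and 29 genes. Counting summits at most 250 bp apart once gave 19.6% of peaks, 1594 bp and a median signal of 101. A TSS window of 200 bp gave 26.5% and of 1000 bp 48.2%, and GAGAG was found in 12.1% within 25 bp and in 38.8% within 100 bp. The lists of 1 replicate alone gave 32 to 103 chains, 7.38% to 16.6% of peaks, 1260 to 1340 bp and 23 to 68 genes. They had 23.6% to 31.0% near a TSS and 16.8% to 25.7% with GAGAG. In both replicates were 50.1% to 71.4% of their chain peaks. Each such peak overlaps its own replicate's list by construction, so this share is not comparable with the others. The signal of these lists is on another scale, so no median is set beside the others. Under every alternative that kept the 500 bp window, fewer than 45% of chain summits lay near a TSS. No paired analysis was possible because the study has 1 group. Read depth is unknown, which limits what absent peaks can show.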
